A study of Homo sapiens with 6 samples.

Results

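The antioxidant enzymes and NRF2 target genes described here are *HMOX1*, *NQO1*, *GCLC*, *GCLM*, *TXNRD1*, *SRXN1*, *SOD1*, *SOD2*, *SOD3* and *CAT*. They were chosen by name, for the function of their products, and with earlier results of these data known. They are 10 of the 58676 gene identifiers in the count table, and all 10 were among the 19072 genes tested. Poly(A) RNA-Seq was performed on MRC5 cells, an established line of human lung fibroblasts, after 24 h in conditioned media (CM) from ATIIER:KRASV12 cells. ATIIER:KRASV12 is a human alveolar epithelial type II (ATII) cell line in which 4-hydroxytamoxifen (4-OHT) turns on RAS signaling. The fibroblasts received CM of untreated cells (control ATII CM, 3 libraries) or CM of 4-OHT-treated cells (4-OHT ATII CM, 3 libraries), and all 6 libraries came from the same fibroblast line with CM of the same epithelial line. RAS activation in the epithelial cells and any 4-OHT carried over in the CM cannot be told apart in this design. The labels do not say that replicates were separate cultures, so p values measure only the spread between these libraries, which may be technical.

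Library totals ranged from 17691849 to 22749248 counts in control ATII CM and from 21798614 to 26389449 in 4-OHT ATII CM. Control replicate 2, the library with the smallest total, stood apart from the other controls, since chi-square over genes divided by its degrees of freedom was 5.56 and 4.87 against them and 2.04 to 2.92 for the other replicate pairs. The summed level of 10 fibroblast markers was 40400 to 43800 CPM, the count of a gene relative to the normalized library size in the control libraries and 42000 to 43700 CPM in the 4-OHT libraries. Most of it came from *COL1A1* and *COL1A2*, which were not called, while the matrix genes *DCN* (log2 fold change 0.33, edgeR adjusted p = 2.66e-06), *LUM* (0.29, 3.99e-05) and *COL3A1* (0.18, 0.000463) rose and the intermediate filament gene *VIM* fell by 0.10 on the log2 scale (0.0414). The call of *VIM* was lost without control replicate 3 (0.158) or 4-OHT replicate 1 (0.128), 2 (0.0759) or 3 (0.212), in a range of 0.00889 to 0.212. It was also lost with no filter on low counts (0.0606) and when the replicate number was added to the fit as a block. *VIM* shares 24.4% of its exon bases with other genes. The largest part is with *VIM-AS1* on the opposite strand, which had 8 to 20 counts in each library. Of 10 epithelial markers, 7 stayed under 1 CPM in every library, *KRT5* and *NKX2-1* had no counts, and the sum, mostly from the keratins *KRT8*, *KRT18* and *KRT19*, was 91.3 to 97.2 against 88.9 to 95.1 CPM. The sum of 5 leukocyte markers, mostly *CD14*, was 0.656 to 1.01 CPM in control and 1.14 to 1.94 CPM in 4-OHT ATII CM. That of 5 endothelial markers was 120 to 138 against 163 to 172 CPM, nearly all from *TEK* (log2 fold change 0.37, adjusted p = 0.000162), with *PECAM1* and *CDH5* at 0 counts. These differences moved with the groups and their part in the results below was not tested. Mitochondrial genome transcripts made up 1.94 to 2.02% of counts in control and 1.85 to 2.07% in 4-OHT ATII CM. In bulk RNA, fewer cells of a type and less RNA per cell cannot be told apart.

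As background, NRF2 (encoded by *NFE2L2*) is a transcription factor that the adaptor KEAP1 holds in the cytoplasm and passes to a CUL3 ubiquitin ligase for degradation. Oxidants and electrophiles modify cysteines of KEAP1, NRF2 then accumulates, enters the nucleus with a small MAF partner and binds antioxidant response elements, which BACH1 can occupy as a repressor. Its best known targets include *NQO1*, *HMOX1*, both subunits of glutamate-cysteine ligase, *TXNRD1* and *SRXN1*. The superoxide dismutases and catalase act one step earlier on the oxidants themselves, turning superoxide into hydrogen peroxide and hydrogen peroxide into water and oxygen, and the lung is a tissue where both systems are known for protection against inhaled and inflammatory oxidants.

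The antioxidant response element has the core TGACNNNGC, which was searched on both strands in RefSeq promoter windows (GRCh38.p14, 250 bases before to 50 bases after a start). Windows were at hand for 8 of the 10 genes, 12 windows in all. The core was found in 3 windows of 2 genes, *GCLM* and *TXNRD1*, and in 13.3% of all 35116 windows. The related palindrome TGANTCA, the binding motif of AP-1, was in none of the 12 windows and in 7.71% of all windows. A match is a description of letters and no match says only that these letters are not in this window. The windows with a match and that of *NQO1*, the gene with the smallest p value of the 10, are printed 5′ to 3′ on the strand of the gene with the core in capitals. Positions count the first transcribed base as 0.
GCLM, chr1:93909381-93909680, minus strand, core at -34 to -26 on the opposite strand: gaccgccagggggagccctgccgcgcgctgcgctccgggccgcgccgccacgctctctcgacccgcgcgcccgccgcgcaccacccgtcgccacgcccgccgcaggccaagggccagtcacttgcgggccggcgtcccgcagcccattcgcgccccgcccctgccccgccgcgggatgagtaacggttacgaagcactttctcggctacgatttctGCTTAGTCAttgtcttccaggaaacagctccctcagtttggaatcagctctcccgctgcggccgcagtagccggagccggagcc
TXNRD1 first window, chr12:104215529-104215828, plus strand, cores at -99 to -91 and, on the opposite strand, at -8 to 0: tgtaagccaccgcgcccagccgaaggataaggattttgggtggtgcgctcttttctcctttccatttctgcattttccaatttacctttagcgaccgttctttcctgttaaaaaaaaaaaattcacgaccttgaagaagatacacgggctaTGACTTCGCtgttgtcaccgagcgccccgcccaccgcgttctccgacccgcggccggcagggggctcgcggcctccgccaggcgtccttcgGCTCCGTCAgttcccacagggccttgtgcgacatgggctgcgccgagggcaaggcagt
TXNRD1 second window, chr12:104286782-104287081, plus strand, core at -102 to -94 on the opposite strand: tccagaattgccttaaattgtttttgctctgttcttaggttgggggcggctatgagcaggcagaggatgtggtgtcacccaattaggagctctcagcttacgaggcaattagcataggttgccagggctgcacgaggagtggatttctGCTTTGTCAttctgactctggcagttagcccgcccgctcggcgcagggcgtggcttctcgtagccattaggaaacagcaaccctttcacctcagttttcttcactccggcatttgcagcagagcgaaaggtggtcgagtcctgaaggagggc
NQO1, chr16:69726511-69726810, minus strand, no core: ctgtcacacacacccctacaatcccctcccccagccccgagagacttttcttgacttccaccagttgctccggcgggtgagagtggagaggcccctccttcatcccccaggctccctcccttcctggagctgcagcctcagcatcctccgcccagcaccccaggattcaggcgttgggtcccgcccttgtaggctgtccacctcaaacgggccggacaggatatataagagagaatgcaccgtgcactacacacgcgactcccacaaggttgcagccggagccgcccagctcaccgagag

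In 4-OHT ATII CM, 4 of the 10 genes were upregulated and none was downregulated. *SOD3*, *HMOX1*, *SOD2* and *NQO1* rose by 31.7, 14.0, 12.0 and 11.8%, all small changes. Of all genes tested, 2.95% were called higher (563 genes) and 2.76% lower (527 genes) by edgeR's quasi-likelihood test at an adjusted p under 0.05. Among genes with a mean of at least 5 CPM, a range that holds all 10, 5.12% were called higher. At an unadjusted p under 0.05, 5 of the 10 genes were higher and 0 lower, against 8.72% and 8.61% of all genes tested, and DESeq2 and limma-voom each called 4 higher and 0 lower. The median log2 fold change was 0.102 over the 10 genes and -0.002 over all genes tested. In 8 of the 10 genes every 4-OHT library was above every control library, against 11.7% of all genes tested and 16.2% of those in the range from 5 CPM upwards. The reverse order, with every 4-OHT library below every control, was seen in none of the 10 and in 10.4% of all genes tested.

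The count of 4 depended on single libraries. It was 1 without replicate 2 or replicate 3 of 4-OHT ATII CM or without replicate 1 of control ATII CM, 2 without control replicate 3, and 3 without control replicate 2 or 4-OHT replicate 1.

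**Figure D1:**
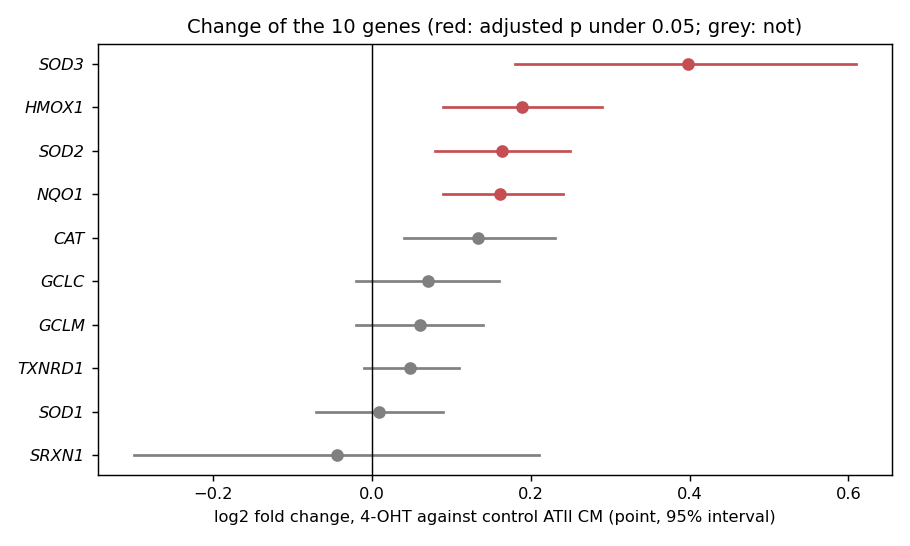
Log2 fold change of each of the 10 genes in 4-OHT against control ATII CM, with bars for the 95% interval from edgeR. The 4 genes in red passed an adjusted p under 0.05, with SOD3 at 0.40 and the other 3 between 0.16 and 0.19, and the intervals of GCLC, GCLM, TXNRD1, SOD1 and SRXN1 include 0.

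Levels of different genes were compared as CPM per kilobase of exon that no other gene shares. The length counts all such annotated exon bases, for example 15350 for *SOD2* and 2019 for *SOD1*, so the order depends on the annotation. In control ATII CM, *TXNRD1* had 161 ± 3.41 (mean ± SD, n = 3) and *NQO1* 157 ± 7.57 CPM per kilobase, and the libraries of this pair overlapped. Over all of its 3254 exon bases, 575 of them shared with a gene on the opposite strand, *NQO1* had 129 ± 6.23 CPM per kilobase, below *TXNRD1*. *SOD1* followed with 69.9 ± 0.272 CPM per kilobase. *HMOX1* with 19.9 ± 1.15 and *GCLM* with 19.9 ± 0.0539 also overlapped. *CAT* had 15.1 ± 0.275, *SOD2* 11.4 ± 0.420, *GCLC* 10.5 ± 0.503 and *SOD3* 4.97 ± 0.688 CPM per kilobase, and no other neighbours in this order overlapped. *SRXN1* stood between *SOD1* and *HMOX1* with 26.8 ± 5.53 by its 406 unshared exon bases. Over all of its 2698 exon bases, however, it was at 4.03 ± 0.832, a mean below that of *SOD3*, with overlapping libraries. The places of *SRXN1* and *NQO1* therefore depend on whether reads at the shared bases, 2292 for *SRXN1*, were counted. This is not given in the sources used here. ENSG00000270299, which shares those 2292 bases on the same strand, had 1 to 3 counts in each library. Few or no reads there were thus counted for both genes.

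In 4-OHT ATII CM, by unshared exon bases, the means of both pairs that overlapped in control were in the reverse order, and the other genes kept their places. *NQO1* had 175 ± 0.615 CPM per kilobase, above *TXNRD1* with 166 ± 2.28, but at 144 over all exon bases it was below it, as in control. *HMOX1* with 22.7 ± 0.935 was above *GCLM* with 20.8 ± 0.592. The libraries of neighbouring genes did not overlap in this group. The levels of the other genes were 70.3 ± 3.19 for *SOD1*, 25.8 ± 1.46 for *SRXN1*, 16.5 ± 0.767 for *CAT*, 12.8 ± 0.400 for *SOD2*, 11.1 ± 0.201 for *GCLC* and 6.55 ± 0.562 CPM per kilobase for *SOD3*.

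**Figure D2:**
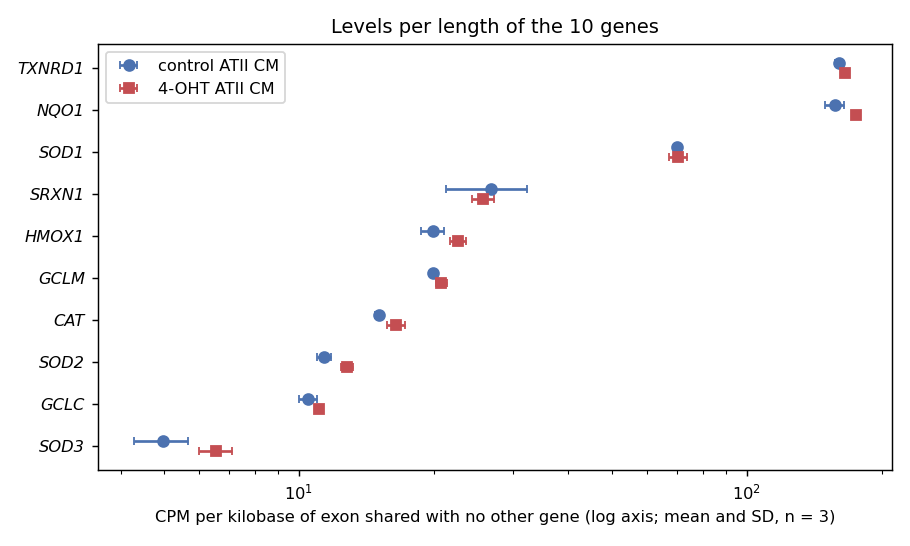
Level of each of the 10 genes in CPM per kilobase of exon shared with no other gene, on a log axis, with points for the mean of control (blue circles) and 4-OHT ATII CM (red squares) and bars for the SD (n = 3). TXNRD1 and NQO1 stand at 157 to 175 and SOD3 at 4.97 to 6.55, and the SDs within a gene are small beside the distances between most genes.

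*NQO1* (ENSG00000181019, GRCh38 chr16:69706996-69726951, minus strand) encodes a quinone reductase that keeps quinones from redox cycling. Its level was 409, 444 and 408 CPM in the control libraries 1, 2 and 3, from 7922 to 9244 counts, and 469, 471 and 468 CPM in the 4-OHT libraries, from 10270 to 12303 counts. The 4-OHT libraries lay together above the highest control, replicate 2. The mean went from 420.2 ± 20.3 to 469 ± 1.65 CPM (n = 3 each), a rise of 11.8% (95% interval 6.12 to 17.7%, log2 fold change 0.16, SE 0.0352, edgeR adjusted p = 0.0119). It ranked 572nd of all genes tested by p value. The spread of the 4-OHT libraries, a coefficient of variation of 0.351%, was below the 0.935% that counting error alone gives, while the 4.83% of the controls was above their 1.08%.

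The *NQO1* call was lost without 4-OHT replicate 2 (adjusted p = 0.0706) or 3 (0.0652) or control replicate 1 (0.0653) or 3 (0.0928), with log2 fold changes of 0.134 to 0.201 and adjusted p values of 5.32e-05 to 0.0928 when single libraries were left out. Without control replicate 2 the log2 fold change was 0.201 (5.32e-05). An unnamed gene on the opposite strand shares 575 exon bases with *NQO1* and had no counts.

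*HMOX1* (ENSG00000100292, chr22:35380361-35394214, plus strand) encodes heme oxygenase 1, which splits heme into biliverdin, iron and carbon monoxide. Its level was 46.8, 45.6 and 50.9 CPM in the control libraries and 52.6, 57.0 and 54.0 CPM in the 4-OHT libraries, from 814 to 1421 counts. The groups did not overlap, with control replicate 3 closest to the 4-OHT libraries. The mean rose by 14.0% (95% interval 6.09 to 22.6%), from 47.8 ± 2.77 to 54.5 ± 2.25 CPM, with a log2 fold change of 0.19 (SE 0.0490, edgeR adjusted p = 0.0318). Leaving out single libraries gave adjusted p values of 0.0199 to 0.158, and the call was lost without 4-OHT replicate 2 (0.158) or 3 (0.0944) or control replicate 1 (0.106) or 2 (0.0505). It was also lost when all libraries were thinned to the smallest total (adjusted p = 0.0936).

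Glutamate-cysteine ligase makes the rate-limiting step of glutathione synthesis and joins a catalytic subunit, *GCLC* (ENSG00000001084, chr6:53497341-53616970, minus strand), to a modifier subunit, *GCLM* (ENSG00000023909, chr1:93885205-93909456, minus strand). *GCLC* was at 88.0, 80.8 and 87.7 CPM in control and at 91.2, 90.5 and 88.1 CPM in 4-OHT ATII CM, groups that did not overlap, although control replicate 1 and 4-OHT replicate 3 were nearly level. Its log2 fold change of 0.07 (95% interval -0.02 to 0.16) did not pass the test (edgeR adjusted p = 0.426). *GCLM*, which has the core in the promoter window printed above, was at 107.9, 107.8 and 108.4 CPM in control and at 116.1, 112.6 and 109.6 CPM in 4-OHT ATII CM. All 4-OHT libraries were above the controls, and the log2 fold change of 0.06 (95% interval -0.02 to 0.14) did not pass the test (adjusted p = 0.440). *GCLC* shares 529 exon bases with ENSG00000231683 on its own strand, which had no counts, and 7 with *GCLC-AS1* on the other, which had 1 to 3 counts in each library (log2 fold change 0.11, adjusted p = 0.963). Neither subunit was called in any of 15 alternatives. The intervals reach 11.6% for *GCLC* and 10.1% for *GCLM*, so rises of that size remain compatible with these libraries.

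*TXNRD1* (ENSG00000198431, chr12:104215779-104350305, plus strand) encodes the cytosolic selenoenzyme that reduces thioredoxin. It was the most abundant of the 10 genes in CPM, with 1078, 1101 and 1055 CPM in control and 1132, 1102 and 1110.4 CPM in 4-OHT ATII CM, from 19663 to 29185 counts. Control replicate 2 and 4-OHT replicate 2 nearly touched. The log2 fold change was 0.05 (SE 0.0277, 95% interval -0.01 to 0.11, adjusted p = 0.415), and the interval ended at a rise of 7.70%. Its counting error was the smallest of the 10 genes, and no alternative called it.

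*SRXN1* (ENSG00000271303, chr20:646615-653370, minus strand) encodes sulfiredoxin, which restores overoxidized peroxiredoxins. Its level was 10.7, 13.2 and 8.74 CPM in control and 10.6, 9.82 and 10.995 CPM in 4-OHT ATII CM, from 198 to 289 counts. The 4-OHT libraries lay inside the range of the controls, whose coefficient of variation of 20.6% was above the 6.73% of counting error. The log2 fold change was -0.04 (95% interval -0.30 to 0.21, adjusted p = 0.908), and without control replicate 2 it was 0.110. The gene shares exon bases on its own strand with ENSG00000270299, which had 1 to 3 counts in each library (log2 fold change 0.17, adjusted p = 0.946).

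**Figure D3:**
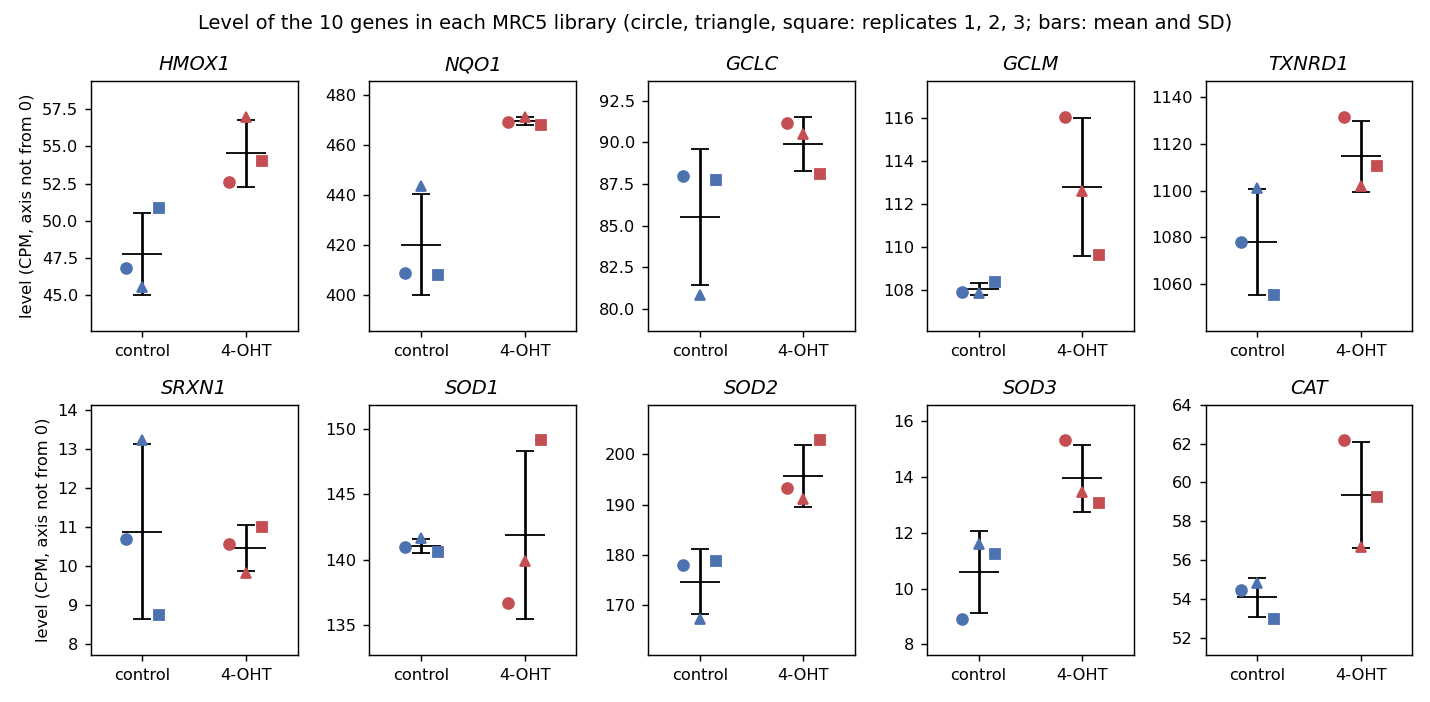
Level in CPM of each of the 10 genes in every library (circle, triangle and square for replicates 1, 2 and 3), with the mean and SD of each group and axes that do not start at 0. The groups are apart in 8 panels and overlap for SRXN1 and SOD1, and the gap is narrow for GCLC and TXNRD1.

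The superoxide dismutases differ in where they work: *SOD1* is the copper-zinc enzyme of the cytosol, *SOD2* the manganese enzyme of mitochondria and *SOD3* a secreted copper-zinc enzyme of the extracellular matrix. *SOD1* (ENSG00000142168, chr21:31659622-31668931, plus strand) was at 140.9, 141.7 and 140.6 CPM in control and 136.7, 139.9 and 149.1 CPM in 4-OHT ATII CM. The controls lay inside the range of the 4-OHT libraries, with 2 of the latter below and 1 above them. Its log2 fold change was 0.01 (SE 0.0388, 95% interval -0.07 to 0.09, adjusted p = 0.942), and it was -0.031 without 4-OHT replicate 3.

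*SOD2* was at 178, 167 and 179 CPM in the control libraries and at 193, 191 and 203 CPM in the 4-OHT libraries, from 2987 to 5328 counts. Every 4-OHT library was above every control. The mean rose by 12.0% (95% interval 5.85 to 18.5%), from 175 ± 6.45 to 196 ± 6.15 CPM, with a log2 fold change of 0.16 (SE 0.0383, edgeR adjusted p = 0.0184). It was called in 15 of 16 alternatives, the exception being the fit without 4-OHT replicate 3 (adjusted p = 0.136), and single omissions gave 0.0166 to 0.136.

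Its counts are those deposited, while a supplementary list of the study holds counts for *SOD2* that are lower by a constant factor. Such a factor leaves the fold change as it is, but the place of *SOD2* among the per-length levels and its ratio to *SOD1* rest on the deposited counts. The identifier taken as *SOD2* (ENSG00000112096, chr6:159669057-159745186, minus strand) was matched by position. It covers 16431 of the 18144 exon bases (90.6%) of *SOD2* in GENCODE release 44. It shares 845 bases with ENSG00000285441 on the same strand, which had 0 or 1 count in each library, and 298 bases with *WTAP* on the opposite strand. *WTAP*, a subunit of the RNA methyltransferase complex, was at 78.5 ± 0.346 CPM in control and 79.6 ± 1.64 CPM in 4-OHT ATII CM (log2 fold change 0.02, adjusted p = 0.855).

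*SOD3* (ENSG00000109610, chr4:24789912-24800842, plus strand) had the largest fold change of the 10 genes and the lowest per-length level by unshared exon. It was at 8.90, 11.6 and 11.3 CPM in control and at 15.3, 13.5 and 13.0 CPM in 4-OHT ATII CM, from 190 to 343 counts. The groups did not overlap, with control replicate 1 the lowest library and 4-OHT replicate 1 the highest. The mean went from 10.6 ± 1.46 to 13.9 ± 1.20 CPM, a rise of 31.7% (95% interval 13.4 to 53.0%, log2 fold change 0.40, SE 0.102, edgeR adjusted p = 0.0299). Counting error alone gives coefficients of variation of 6.78 and 5.44% at this depth, against 13.8 and 8.58% measured. The call was lost without 4-OHT replicate 1 (adjusted p = 0.122) or 2 (0.0794) or control replicate 1 (0.139) or 3 (0.0523), in a range of 0.00965 to 0.139. It was also lost when the replicate number was added to the fit as a block.

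The balance of the 3 dismutases was read as ratios of per-length levels. These divide by all annotated exon bases that no other gene shares, 15350 for *SOD2*, 2019 for *SOD1* and 2128 for *SOD3*. The size of a ratio therefore rests on the annotation, while its change between the groups does not. In CPM, *SOD2* was above *SOD1* in control (175 against 141). *SOD2* over *SOD1* was 0.166, 0.155 and 0.167 in control and 0.186, 0.180 and 0.179 in 4-OHT ATII CM. *SOD3* over *SOD1* was 0.0599, 0.0776 and 0.0759 in control and 0.106, 0.0914 and 0.0830 in 4-OHT ATII CM. For both ratios the groups were apart, with two-sided exact permutation p = 0.1 (0.15 adjusted over the 3 ratios tested), the smallest p that 3 against 3 libraries allow. *GCLC* over *GCLM* was 0.529 ± 0.0245 in control and 0.533 ± 0.00695 in 4-OHT ATII CM (exact permutation p = 1), with overlapping libraries.

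*CAT* (ENSG00000121691, chr11:34438925-34472062, plus strand) encodes catalase, the peroxisomal enzyme that breaks down hydrogen peroxide. It was at 54.4, 54.8 and 53.0 CPM in control and 62.2, 56.7 and 59.2 CPM in 4-OHT ATII CM, from 979 to 1557 counts. The groups did not overlap, and 4-OHT replicate 2 was the closest to the controls. The log2 fold change of 0.13 (SE 0.0431, 95% interval 0.04 to 0.23, unadjusted p = 0.00697 from edgeR across all genes) did not pass after adjustment (0.0889). It passed in 2 of 15 alternatives, with no filter on low counts (adjusted p = 0.0355) and after thinning to equal totals (0.0427), and the range when single libraries were left out was 0.0586 to 0.321.

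**Figure D4:**
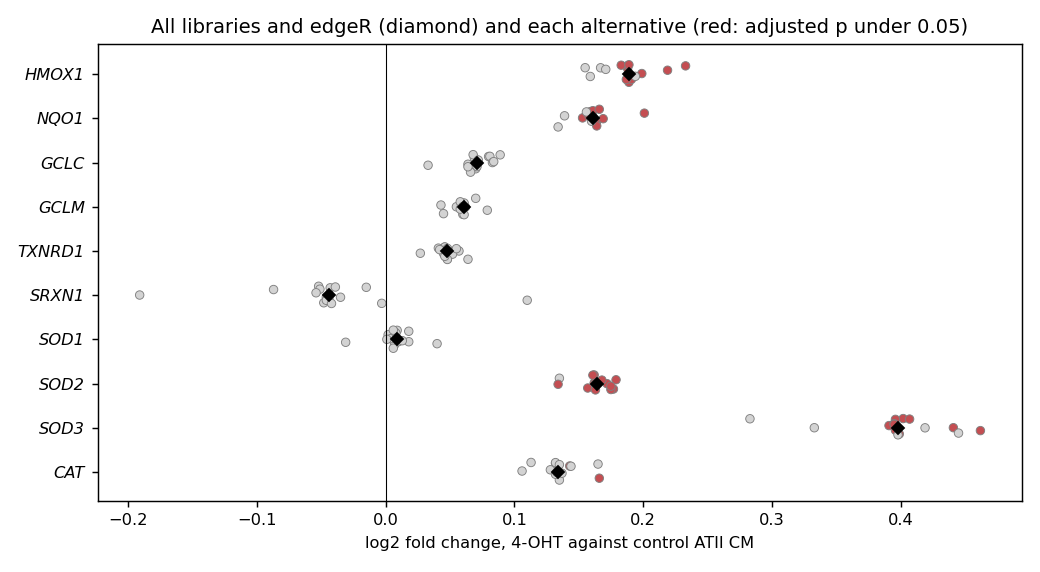
Log2 fold change of each of the 10 genes with all libraries and edgeR (black diamond) and under each alternative (circles, red where the adjusted p is under 0.05). The estimates of HMOX1, NQO1, SOD2, SOD3 and CAT stay above 0.1 in every alternative, and those of SRXN1 and SOD1 fall on both sides of 0.

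Among 12 genes that control NRF2, *NFE2L2*, the gene of NRF2 itself, was the only one called, beside 2.95% of all genes tested called higher. It was at 252, 252 and 254 CPM in control and 289.6, 279 and 285 CPM in 4-OHT ATII CM, without overlap. The rise was 12.6% (95% interval 7.40 to 18.0%, log2 fold change 0.17, edgeR adjusted p = 0.00410), and it was called in all 15 alternatives. Of its exon bases, 20.9% are shared with other genes, mostly with ENSG00000213963 on the same strand, which had 23 to 55 counts in each library. *KEAP1*, the adaptor that marks NRF2 for degradation, went from 79.4 ± 3.13 to 82.0 ± 2.95 CPM (log2 fold change 0.05, adjusted p = 0.647). *BACH1*, the repressor at the same elements, went from 62.4 ± 0.0642 to 65.1 ± 3.83 CPM (0.06, adjusted p = 0.570). The median log2 fold change of the list was 0.019. None of the 12 was called lower by edgeR, DESeq2 or limma-voom, with 1 lower at an unadjusted p under 0.05, against 8.61% of all genes tested.

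Of 26 other NRF2 target genes, 25 were tested, 4 were called higher and 0 lower (2.95% and 2.76% of all genes tested), and their median log2 fold change was 0.048. The list does not hold every known target, so its counts depend on the choice of genes. At an unadjusted p under 0.05, 8 of the 25 were higher and 0 lower, against 8.72% and 8.61% of all genes tested, and DESeq2 and limma-voom called 0 lower. *AKR1C1*, an aldo-keto reductase of steroids and carbonyls, was at 54.3, 55.3 and 56.9 CPM in control and 65.5, 70.6 and 68.1 CPM in 4-OHT ATII CM. It rose by 22.7% (log2 fold change 0.30, adjusted p = 0.000430) and was called in all 15 alternatives. *AKR1C2* rose from 3.58 ± 0.119 to 5.11 ± 0.228 CPM (log2 fold change 0.51, adjusted p = 0.0230), but DESeq2 did not call it (0.0666). The coding sequences of *AKR1C1* and *AKR1C2* are nearly identical, so the split of reads between them is uncertain.

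*PGD*, an NADPH-producing enzyme of the pentose phosphate pathway, rose from 343 ± 10.8 to 377 ± 3.07 CPM (log2 fold change 0.14, adjusted p = 0.0196). *SLC6A6*, the taurine transporter, rose from 94.4 ± 6.46 to 108 ± 5.25 CPM (0.19, adjusted p = 0.0331). Leaving out control replicate 3 or 4-OHT replicate 2 or 3 took away the calls of *PGD* (adjusted p = 0.128, 0.0985 and 0.0863), *SLC6A6* (0.108, 0.177 and 0.110) and *AKR1C2* (0.0997, 0.0625 and 0.112). For *PGD* and *AKR1C2* the same held for control replicate 1 (0.0868 and 0.0606) and 4-OHT replicate 1 (0.0649 and 0.0504). The call of *SLC6A6* was also lost when the replicate number was added to the fit as a block. When single libraries were left out, the adjusted p values ranged from 0.000643 to 0.128 for *PGD*, 0.0144 to 0.177 for *SLC6A6* and 0.0276 to 0.112 for *AKR1C2*.

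Other well known targets did not pass. *SLC7A11*, the cystine importer that feeds glutathione synthesis, was at 338, 278 and 328 CPM in control and 289, 296 and 292 CPM in 4-OHT ATII CM (log2 fold change -0.11, adjusted p = 0.319). It was called only without control replicate 2, the lowest control (-0.187, adjusted p = 0.000288), over a range of 0.000288 to 0.678. *GSR*, glutathione reductase, was at 73.1, 79.2 and 80.2 CPM in control and 86.4, 83.3 and 84.0 CPM in 4-OHT ATII CM (0.13, adjusted p = 0.106). It was called without control replicate 2 (0.0428, in a range of 0.0428 to 0.363) and with no filter on low counts (0.0369). *TXN*, thioredoxin, and *PRDX1*, a peroxiredoxin, had log2 fold changes of 0.05 and -0.03 with adjusted p values of 0.519 and 0.758, and *PRDX1* shares 24.9% of its exon bases with *MMACHC* on the opposite strand.

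Among 29 peroxidases, thioredoxins and glutathione enzymes, 1 was called higher and 1 lower, near the 2.95% and 2.76% of all genes tested, with a median log2 fold change of -0.026. *GPX3*, the secreted glutathione peroxidase, rose from 9.95 ± 0.580 to 13.2 ± 1.00 CPM (log2 fold change 0.40, adjusted p = 0.0111). Its call was lost without 4-OHT replicate 2 (0.0723) or control replicate 3 (0.0716), in a range of 0.0115 to 0.0723. *PRDX6*, a peroxiredoxin that reduces phospholipid peroxides, was at 488, 519 and 506 CPM in control and 449.5, 449.6 and 446 CPM in 4-OHT ATII CM. It fell by 0.17 on the log2 scale (adjusted p = 0.00399) and was called in all 15 alternatives. The selenoproteins *GPX1* and *GPX4* had log2 fold changes of 0.01 (adjusted p = 0.921) and -0.01 (0.928).

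Of 20 genes for sources of superoxide and hydrogen peroxide, 15 were tested, 1 was called higher and 1 lower, beside 2.95% and 2.76% of all genes tested, with a median log2 fold change of -0.013. *QSOX1*, a sulfhydryl oxidase of the secretory pathway, rose from 3498 ± 43.4 to 3825 ± 146 CPM (log2 fold change 0.13, adjusted p = 0.0100). That call was lost without 4-OHT replicate 2 (0.0659) or 3 (0.0627), in a range of 0.0035 to 0.0659. *LOX*, the collagen cross-linking oxidase, was at 444, 423 and 444 CPM in control and 395, 385 and 385 CPM in 4-OHT ATII CM. It fell by 0.17 on the log2 scale (adjusted p = 0.00427) and was called in all 15 alternatives. *NOX4*, an NADPH oxidase of fibroblasts, stood at 2.78 ± 0.487 and 3.42 ± 0.194 CPM, where the log2 fold change of 0.29 had an interval of -0.06 to 0.64 (adjusted p = 0.400).

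Of 16 heme and iron genes, which handle the substrate and a product of *HMOX1*, 15 were tested, 1 was called higher and 0 lower (2.95% and 2.76% of all genes tested), with a median log2 fold change of 0.035. At an unadjusted p under 0.05, 2 of the 15 were higher and 2 lower, beside the same 8.72% and 8.61% of all genes, and DESeq2 and limma-voom called 0 lower. *SLC40A1*, the iron exporter ferroportin, was at 18.4, 18.0 and 18.1 CPM in control and 25.3, 23.2 and 24.2 CPM in 4-OHT ATII CM. It rose by 33.1% (95% interval 21.5 to 45.9%, log2 fold change 0.41, adjusted p = 0.000775) and was called in all 15 alternatives. The ferritin chains *FTL* and *FTH1* had log2 fold changes of 0.12 (adjusted p = 0.101) and 0.08 (0.339). *FTL* was called without 4-OHT replicate 1 (0.0265, in a range of 0.0265 to 0.392) and with no filter on low counts (0.000401). It was also called when the replicate number was added to the fit as a block. *FTH1* shares 62.4% of its exon bases with *BEST1* on the opposite strand, which had 118 to 242 counts in each library. The constitutive heme oxygenase gene *HMOX2* had 1 count over all libraries and was not tested. *HMOX2* shares only 228 of its 3793 exon bases (6.0%), with *NMRAL1* on the opposite strand, which also had 1 count. The part of read counting in the low count was not tested.

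*SOD2* is also known as a gene that NF-kB induces. Of 12 other NF-kB inducible genes, edgeR, DESeq2 and limma-voom called 0 in either direction, with 2 higher and 2 lower at an unadjusted edgeR p under 0.05 (8.72% and 8.61% of all genes tested) and a median log2 fold change of 0.039.

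**Figure D5:**
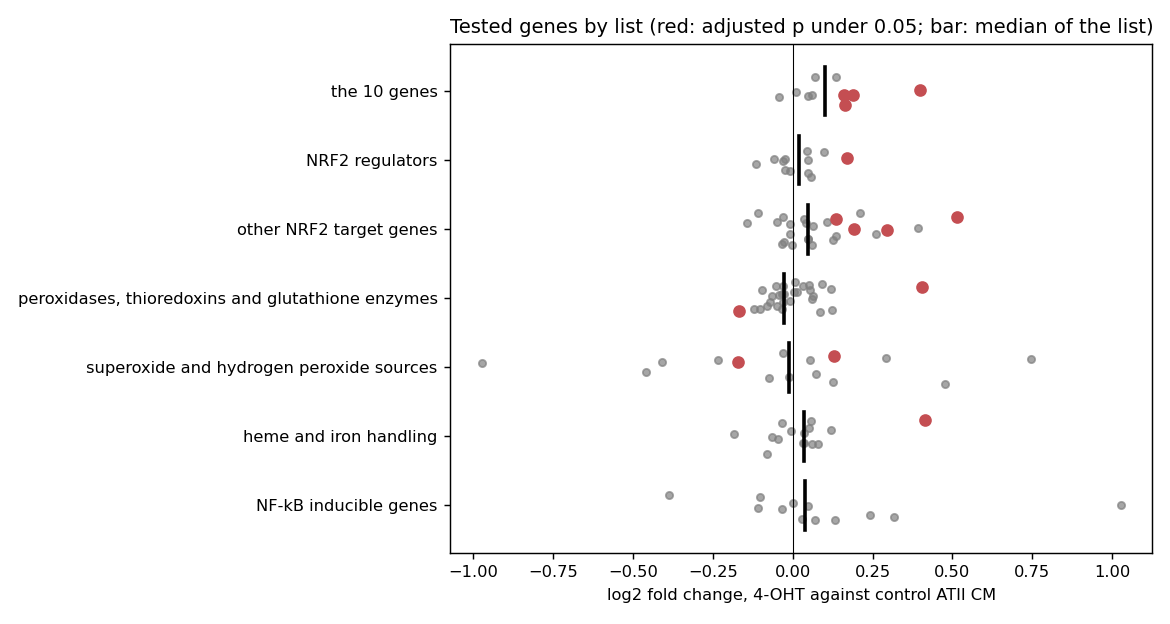
Log2 fold change of every tested gene in the 10 genes and in 6 further lists, one point per gene, with red points for an adjusted p under 0.05 and a bar at the median of each list. Medians lie between -0.026 and 0.102, and the genes called lower are in the lists of peroxidases and of oxidant sources.

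The pattern of *NQO1* over the 6 libraries was compared with that of 9202 genes with a mean of at least 10 CPM by Pearson's r of log2 CPM, as a description over libraries that share a group difference. The 5 most alike were *NDRG1* (0.9962), *TSTD2* (0.9947), *SARAF* (0.9944), *PGD* (0.9932) and *DHRS7* (0.9906). All of them had control replicate 2 as the highest control and little spread in the 4-OHT libraries, as *NQO1* had. Of the 5, *PGD* alone was called, and the others had log2 fold changes of 0.09 to 0.12 with adjusted p values of 0.0682 to 0.550. Without control replicate 2, *NDRG1* (0.0222), *SARAF* (0.00777) and *DHRS7* (0.0467) also passed, and *SARAF* did with all libraries in limma-voom (0.0441) and with no filter on low counts (0.0290).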

How the data were processed

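RNA-Seq counts of MRC5 fibroblasts (3 control and 3 4-OHT ATII CM libraries, grouped by their labels) were used. Per the submitters' processing notes, the authors checked reads with FastQC and MultiQC, used Trim Galore for trimming, HISAT2 2.1.0 for mapping to GRCh38 and featureCounts 1.6.5 for counting. The deposited values are raw counts per gene, without normalization, beside the exon length in bases. The annotation release, the strand setting and the handling of reads on overlapping genes are not given in the sources used here. Overlaps are therefore stated for the 10 genes and for *NFE2L2*, *PRDX1*, *FTH1*, *HMOX2* and *VIM*. Those of other named genes are not given. Counts of 45 identifiers listed on X and Y were added, and 30927 of the 58676 identifiers had no counts.

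Genes with at least 10 counts over the 6 libraries were tested with edgeR 4.0.16 (R 4.3.3), by its quasi-likelihood test after TMM normalization, with a single term for the group and Benjamini-Hochberg adjustment over all genes tested (threshold 0.05). CPM use TMM library sizes. All p values across genes come from this fit unless DESeq2 1.42.0 or limma-voom (limma 3.58.1) is named. The common biological coefficient of variation was 4.36%, and coefficients of variation from counting error cover that error only. The scripts were tested on simulated counts. Alternatives were other normalizations, filters, tools, thinning to the smallest total, a replicate block and leaving out each library. For *SRXN1* and *SOD2*, the sum with an overlapping identifier was a further one, that of *SRXN1* chosen after seeing the data. Gene names came from GENCODE release 44 and promoter windows from RefSeq (GRCh38.p14).

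The 10 genes and all lists were chosen with earlier results of these data known. Named besides the 10 were every gene of the pathway and marker lists past the threshold, 14 further list genes whatever their values (1 of them is not reported here), genes whose exons overlap one of the 10, and the 5 genes most like the one with the smallest p. Other marker genes were named after their values were seen.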

Additional observations from a re-analysis of the deposited data

How the results depend on the processing

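The direction of *HMOX1*, *NQO1*, *GCLC*, *GCLM*, *TXNRD1*, *SOD2*, *SOD3* and *CAT* was the same in every alternative run. Signs changed only when single libraries were left out, over ranges of -0.191 to 0.110 for *SRXN1*, -0.031 to 0.040 for *SOD1*, -0.053 to 0.001 for *PRDX1*, -0.031 to 0.051 for *GPX1*, -0.033 to 0.011 for *GPX4*, -0.308 to 0.415 for *GCLC-AS1* (1 to 3 counts a library) and -0.051 to 0.534 for ENSG00000270299, none of which was called. Leaving out single libraries gave 289 to 696 genes called higher and 244 to 834 lower against 563 and 527, with both upper ends from leaving out control replicate 2, which stood apart from the other controls. For the 10 genes it gave 1 to 3 called higher against 4. For the other NRF2 targets it gave 1 to 5 higher and 0 to 1 lower against 4 and 0, for the peroxidases 0 to 2 higher and 1 to 2 lower against 1 and 1, for the oxidant sources 0 to 2 higher against 1, for heme and iron genes 1 to 2 higher and 0 to 1 lower against 1 and 0, and for NF-kB genes 0 to 1 higher against 0. Without a filter on low counts, 875 genes were called higher, with 2 oxidant sources and 2 heme and iron genes among them. 1 heme and iron gene was called lower with edgeR's own filter (filterByExpr) and 1 after thinning. The cause of these differences was not tested. Same-numbered libraries did not deviate together (correlations -0.0145, -0.104 and -0.0931, against -0.0645 to 0.161 for libraries of different numbers). No shared deviation by replicate number was seen. With 3 libraries a group this cannot show whether the samples were paired. With the replicate number as a block, 3 of the 10 genes were called higher. *SOD3* had an adjusted p of 0.0576, *SLC6A6* of 0.0603 and *VIM* of 0.0570, and 2 heme and iron genes were called higher, among them *FTL* (0.0287). Counting error alone was 5.44 to 6.78% for *SRXN1* and *SOD3*, the least deeply counted of the 10 genes.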

Other observations

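*ABCC1*, a glutathione conjugate exporter among the other NRF2 targets, was chosen after its values were seen. It was at 41.2, 39.1 and 42.2 CPM in control and at 43.4, 43.7 and 73.1 CPM in 4-OHT ATII CM, so that replicate 3 stood apart from the other libraries. Its log2 fold change was 0.39 with all libraries (edgeR adjusted p = 0.150) and 0.088 without that replicate (adjusted p = 0.531). The alternatives gave adjusted p values of 0.0562 to 0.531, except for the fit with no filter on low counts (3.86e-14).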
